A study of Mus musculus with 6 samples.

Results

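Interferon-inducible GTPases of the guanylate-binding protein (GBP) and immunity-related GTPase (IRG) families were followed across 6 RNA libraries of mouse RM1 prostate cancer cells. The 8 genes were taken by name from the deposited count table, which holds 23791 named entries: the GBP genes Gbp2, Gbp3 and Gbp7, the regulatory IRG genes Igtp, Irgm1 and Irgm2, and the effector IRG genes Ifi47 and Iigp1. All 8 were present and all 8 passed the filter on low counts. The bone library (1) and the lung library (1) are of RM1536 cells taken from the femur and the lung of 1 mouse, 16 days after an injection into the heart, as cells that had lost the dye PKH26 through division. RM1536 in culture (replicates a and b) is RM1 carrying eCFP and luc2, made by pooling the clones 5, 3 and 6. RM1 in culture (replicates a and b) is the unlabelled line. The strain label of all 6 libraries is C57BL/6. Every library, bone and lung included, is of cells sorted and then grown in medium with 5% serum, so tissue cells were not measured directly. Whether a and b were grown apart is not stated, so p-values measure only the spread between these libraries, which may be technical.

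GBPs and IRGs are GTP-binding proteins that a cell makes after interferon reaches its receptors. They settle on membranes around intracellular parasites and bacteria, such as the vacuole of Toxoplasma, and help to break it open. The IRGM proteins sit on the cell's own membranes and keep the effector IRGs inactive there. Type I interferon acts through a factor complex that holds STAT2 and IRF9 at the interferon-stimulated response element (ISRE) of a promoter, and interferon gamma acts at the gamma-activated sequence (GAS).

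A promoter window of 300 bases from RefSeq (GRCm38.p6), ending 50 bases after the gene's start, was at hand for 7 of the 8 genes, and Iigp1 had none. The ISRE was searched on both strands as GAAA, any 2 bases and GAAA, and was found in 6 of the 7, against 3.44% of all 32851 promoter windows of that length. Of 10 other GBP and IRG family genes with a window, 7 held the ISRE too, so it is not particular to the members. The stretches around the matches are shown because the 8 genes have similar patterns over the libraries. Each line runs 5′ to 3′ on the gene's strand, with the ISRE match in capitals, which stands as its reverse complement (TTTC, 2 bases, TTTC) in the 3 GBP genes, and with 25 bases on either side.
Gbp2 (chr3:142620579-142620638, plus strand): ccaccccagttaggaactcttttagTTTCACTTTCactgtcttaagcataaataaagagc
Gbp3 (chr3:142559974-142560039, plus strand): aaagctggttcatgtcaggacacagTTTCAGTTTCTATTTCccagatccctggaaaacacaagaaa
Gbp7 (chr3:142530258-142530317, plus strand): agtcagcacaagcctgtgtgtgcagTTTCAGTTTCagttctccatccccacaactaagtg
Igtp (chr11:58199497-58199556, plus strand): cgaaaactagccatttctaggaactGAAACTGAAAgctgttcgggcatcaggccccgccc
Irgm1 (chr11:48871410-48871475, minus strand): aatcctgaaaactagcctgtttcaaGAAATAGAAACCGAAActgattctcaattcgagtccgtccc
Irgm2 (chr11:58214888-58214947, plus strand): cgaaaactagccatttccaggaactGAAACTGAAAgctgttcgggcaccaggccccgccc

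The matches began between 24 and 64 bases before the RefSeq start. The GENCODE gene positions given below differ from these starts, and the matches of Gbp2, Irgm1 and Irgm2 lie inside them. Gbp3 and Irgm1 each held 2 overlapping matches. The second RefSeq start of Gbp3 and the window of Ifi47 held none of these letters. The stretches of the neighbouring genes Igtp and Irgm2 were identical at 58 of 60 bases. The GAS, searched as TTCNNNGAA (its own reverse complement), was in 3 of the 7 genes, in 5 of the 10 other family genes and in 8.30% of all windows. It read TTCTAGGAA in Igtp, 45 bases before the start, and TTCCAGGAA in Irgm2, 75 bases before it. Gbp7 held a pair, TTCCAGGAA and TTCTCAGAA, at 106 and 87 bases. No GAS match overlapped an ISRE match. A match of letters is a description and says nothing on whether a factor binds there.

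Total counts were between 22763835 (bone) and 30303566 (RM1536 b) per library, and 1 read equals 0.0324 to 0.0439 CPM, the count scaled to library size with TMM factors. Counts were tested with edgeR's quasi-likelihood test in 1 model of all 6 libraries, with Benjamini-Hochberg adjustment over 13832 genes and a call at an adjusted p of 0.05. The spread comes from the RM1 and RM1536 duplicates, and the single bone and lung libraries were assumed to vary like them. The epithelial keratin genes Krt8 and Krt18 had at least 8179 reads in every library, while the basal keratin gene Krt5 was at 0 in all 6. Of 17 leukocyte markers in the table, the defining marker Ptprc had at most 2 reads in any library. Lyz2, a lysozyme gene of myeloid cells, had 61 reads in bone and 73 in lung, against 0 in the other 4. The summed marker level was 23.6 CPM in bone and 24.4 CPM in lung, 11.9 and 4.24 CPM in RM1536, and 15.3 and 45.4 CPM in RM1, most of it from Cd68. Between 5 and 14 of the 17 were at 0 in a library. Ly6g, a neutrophil surface gene, had 0 reads in both RM1536 libraries against 161 and 51 reads in RM1 (at least 67.7-fold lower in RM1536, 3 counts over the group as the limit; adjusted p = 0.0284), a call lost without RM1536 a or RM1536 b (up to 0.0878), and its part in the differences below was not tested. S100a8 went the other way, with 5 and 7 reads in RM1536 against 1 and 0 in RM1. Some myeloid markers were read, at low counts, mainly in bone and lung. Adgre1 had 4 and 5 reads in bone and lung, C1qa 3 and 1, Itgam 2 and 1, and Tyrobp 4 and 0. These 4 had 0 reads in both cultured lines. Csf1r had 5 and 4 reads in bone and lung, against 0 and 1 in RM1536 and 2 and 0 in RM1. Cd79a (2 and 3 reads in bone and lung, 1 and 9 in RM1536) and S100a8 (2 and 5 in bone and lung) did not follow. Of the 4 leukocyte markers tested, 2 (Ly6g and Cd68) were lower and 1 (Fcer1g) was higher in RM1536 than in RM1 by sign, and only Ly6g was called. Cd68 overlapped between the lines, at 11.2 and 3.59 CPM in RM1536 and 9.59 and 43.5 CPM in RM1. Fcer1g had 9 and 0 reads in RM1536 and 3 and 0 in RM1. In bulk RNA, fewer cells of a type and less RNA per cell cannot be told apart.

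RM1536 was set against RM1 to see what differs between the labelled cells and their parental line. All 8 GTPase genes were lower in both RM1536 libraries than in either RM1 library, which held for 26.9% of all genes tested. The median log2 fold change of the 8 was -2.57, against 0.02 for all genes tested. Together they took 0.0213% and 0.00403% of the counts in RM1536, against 0.0672% and 0.0820% in RM1. None of the 8 passed the edgeR test (adjusted p from 0.0683 to 0.256), while 3.54% of all genes were called lower. An unadjusted p under 0.05 was reached by 7 of the 8 and by 3176 of all 13832 genes. DESeq2 called 3 of the 8 (Igtp, Irgm1 and Irgm2) among 1466 genes in all, and limma-voom called 1 (Irgm1) among 857.

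The RM1536 duplicates stood far apart in every member. RM1536 a was 3.22 to 13.8 times as high as RM1536 b, with a median log2 ratio of 2.68, and all 8 genes were over 2-fold higher in a, as were 6.46% of all genes tested, against 4.66% over 2-fold lower in a. A lower value in b of whatever size was seen in 49.7% of all genes. The RM1 duplicates differed by at most 1.62 times in any of the 8, and none was past 2-fold, as were 4.27% of all genes in a over b and 6.02% in b over a. Without RM1536 a, all 8 genes were called lower (median log2 fold change -4.49, adjusted p 0.0171 to 0.0353), among 288 genes called lower in all. Without RM1536 b, none of the 8 was called, with 113 genes called lower in all (median of the 8 -1.80, adjusted p 0.0548 to 0.360).

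**Figure D1:**
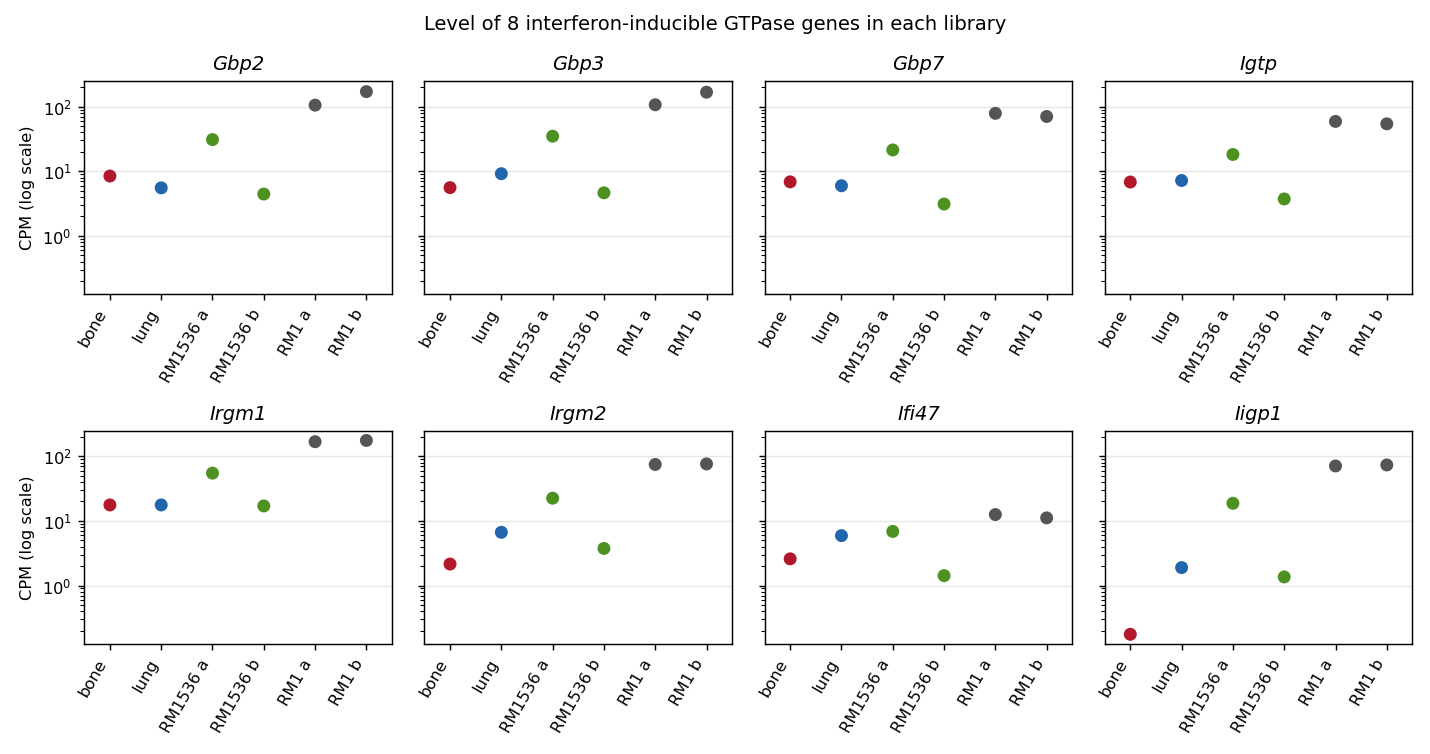
Level of each of the 8 genes in each library, in CPM on a log axis, with 1 point per library. In all 8 panels the RM1 libraries stand highest, RM1536 a lies below them and RM1536 b stands lower still, and Iigp1 in bone is the lowest point, at 0.176 CPM.

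By role, the log2 fold changes in RM1536 against RM1 were from -2.97 to -2.61 in the 3 GBP genes, from -2.53 to -2.26 in the 3 regulatory IRG genes and from -2.85 to -1.52 in the 2 effector genes. Gbp2 (chromosome 3, 142620602 to 142638008, GRCm38), which codes for a lipid-anchored GBP that coats the Toxoplasma vacuole, had 8.43 CPM in bone, 5.53 CPM in lung, 30.9 and 4.43 CPM in RM1536 a and b, and 106 and 171 CPM in RM1 a and b. Bone and lung thus lay inside the range that the RM1536 pair spans, and far below RM1. Its log2 fold change in RM1536 against RM1 was -2.97 ± 0.85 (SE, n = 2 and 2, adjusted p = 0.108).

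Gbp3 (142560026 to 142573209), whose protein also reaches that vacuole, had 5.58 CPM in bone, 9.16 CPM in lung, 34.9 and 4.63 CPM in RM1536, and 107 and 167 CPM in RM1. Its log2 fold change in RM1536 against RM1 was -2.80 ± 0.87 (adjusted p = 0.129). Its order over the libraries was the same as that of Gbp2 except that lung stood above bone. In both genes RM1 b was above RM1 a by over 1.5 times, which no other member showed. Gbp7 (142530342 to 142550149), another GBP of the vacuole, had 6.85 CPM in bone, 5.96 CPM in lung, 21.4 and 3.11 CPM in RM1536, and 78.8 and 70.4 CPM in RM1 (log2 fold change in RM1536 against RM1 -2.61 ± 0.81, adjusted p = 0.128). A processed pseudogene without an entry in the table overlaps 11.3% of the exon length of Gbp7.

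The regulatory IRG genes lay on chromosome 11. Irgm1 (48861968 to 48871683), which codes for a protein of autophagy and of resistance to mycobacteria, had 17.7 CPM in bone, 17.7 CPM in lung, 55.0 and 17.1 CPM in RM1536, and 169 and 176 CPM in RM1. Bone, lung and RM1536 b were nearly level. Its log2 fold change in RM1536 against RM1 was -2.26 ± 0.53 (adjusted p = 0.0683), with the smallest adjusted p of the 8 and the smallest gap between the RM1536 libraries (3.22 times, 95% counting interval 2.91 to 3.57).

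Igtp, also named Irgm3 (58199556 to 58207591), whose protein sits on the endoplasmic reticulum, had 6.81 CPM in bone, 7.18 CPM in lung, 18.2 and 3.72 CPM in RM1536, and 59.1 and 54.2 CPM in RM1 (log2 fold change in RM1536 against RM1 -2.38 ± 0.68, adjusted p = 0.110). Irgm2 (58199618 to 58222782), whose protein is found at the Golgi, had 2.15 CPM in bone, 6.67 CPM in lung, 22.5 and 3.75 CPM in RM1536, and 74.9 and 76.3 CPM in RM1 (-2.53 ± 0.76, adjusted p = 0.120). Irgm2 in bone was below both RM1536 libraries, and Igtp in bone was between them. The annotated exons of the 2 genes overlap on the same strand over 162 bases, 8.01% of the exon length of Igtp and 4.39% of that of Irgm2, and how reads there were counted is not stated.

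The 2 effector genes differed from each other in level and in the gap between duplicates. Iigp1, also named Irga6 (chromosome 18, 60376027 to 60392634), the best-studied effector that breaks the Toxoplasma vacuole, had 4 reads (0.176 CPM) in bone, 1.89 CPM in lung, 18.8 and 1.36 CPM in RM1536, and 71.0 and 73.6 CPM in RM1. The RM1536 libraries differed by 13.8 times (95% counting interval 10.05 to 19.4), the widest of the 8, and its log2 fold change in RM1536 against RM1 was -2.85 ± 1.03 (adjusted p = 0.172). Ifi47, also named Irgd (chromosome 11, 49076587 to 49096974), an effector that joins Iigp1 on such vacuoles, had 2.59 CPM in bone, 5.92 CPM in lung, 6.88 and 1.42 CPM in RM1536, and 12.6 and 11.2 CPM in RM1. Its log2 fold change of -1.52 ± 0.69 was the smallest of the 8 (adjusted p = 0.256), and lung was close to RM1536 a. Exons of an olfactory receptor gene on the same strand overlap 4.49% of its exon length.

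Levels between genes were compared as CPM per kilobase of exon. Per kilobase, Gbp2 led in RM1 (41.97 and 67.9 CPM per kilobase) and in RM1536 a (12.3), while Irgm1 led in RM1536 b (2.94). In bone, Igtp (3.37), Gbp2 (3.35) and Irgm1 (3.05) were not separated at the top, and neither were Igtp (3.55) and Irgm1 (3.04) in lung. Ifi47 was lowest of the 8 in both RM1 libraries (5.08 and 4.51 CPM per kilobase), whereas Iigp1 was lowest in bone (0.0302), lung (0.325) and RM1536 b (0.233). In RM1536 a, Ifi47 (2.78) and Iigp1 (3.22) were not separated at the bottom. Igtp, at 29.2 and 26.8 CPM per kilobase, and Irgm1, at 29.0 and 30.4, were not separated in RM1, and neither were Gbp7 (14.0 and 12.5) and Iigp1 (12.2 and 12.6).

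The next comparisons ask how cells recovered from bone and from lung differ from the cultured line. Both use the same RM1536 libraries. In bone, 6 of the 8 genes lay between RM1536 a and b, and Irgm2 and Iigp1 lay below both, which held for 35.1% of all genes tested. In lung, all 8 lay between RM1536 a and b, and none lay below both, where 39.2% of all genes tested did. All 8 genes in both recovered libraries were below both RM1 libraries, which held for 27.5% of all genes tested, and with both RM1536 libraries added for 18.3%.

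None of the 8 passed the edgeR test in bone against RM1536, where 0.00723% of all genes were called lower, and 2 of the 8 (Irgm2 and Iigp1) had an unadjusted p under 0.05, as did 1372 of all 13832 genes. The median log2 fold change of the 8 in bone was -1.04, against -0.03 for all genes tested. Iigp1 had a log2 fold change of -5.79 ± 1.95 (1 library against 2, adjusted p = 0.391) and Irgm2 of -2.60 ± 1.06 (adjusted p = 0.503). The other 6 had values from -1.82 (Gbp3) to -0.67 (Ifi47). In lung against RM1536, none passed, 0.00% of all genes were called lower (at an unadjusted p under 0.05 there were 1902 genes, and DESeq2 called 356 and limma-voom 0), and none of the 8 had an unadjusted p under 0.05. The median of the 8 in lung was -1.03, against -0.03 for all genes tested, with values from -2.40 (Iigp1) to 0.52 (Ifi47). DESeq2 and limma-voom called none of the 8 in bone or in lung against RM1536.

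Both medians depended on the RM1536 library used. With RM1536 a left out, the members had a median log2 fold change of 0.57 in bone and 0.91 in lung, and without RM1536 b it was -1.76 in bone and -1.78 in lung, with none called either way. Against RM1536 a alone, bone was 2.66 to 107 times lower and lung 1.16 to 9.89 times lower over the 8 genes. Against RM1536 b alone, bone was higher in 6 of 8 genes and lung in 8 of 8, with Irgm1 at 1.04 times in each. The counting intervals of these ratios held 1 for Irgm1 and Gbp3 in bone, and for Irgm1, Gbp2 and Iigp1 in lung. In bone, 1 of the 8 was over 2-fold higher than RM1536 b (Gbp7, 2.20 times), beside 8.97% of all genes tested. In lung it was also 1 of the 8 (Ifi47, 4.16 times), beside 12.1%. Iigp1 in bone was 7.74 times lower than RM1536 b, and Irgm2 had a ratio of 0.573.

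**Figure D2:**
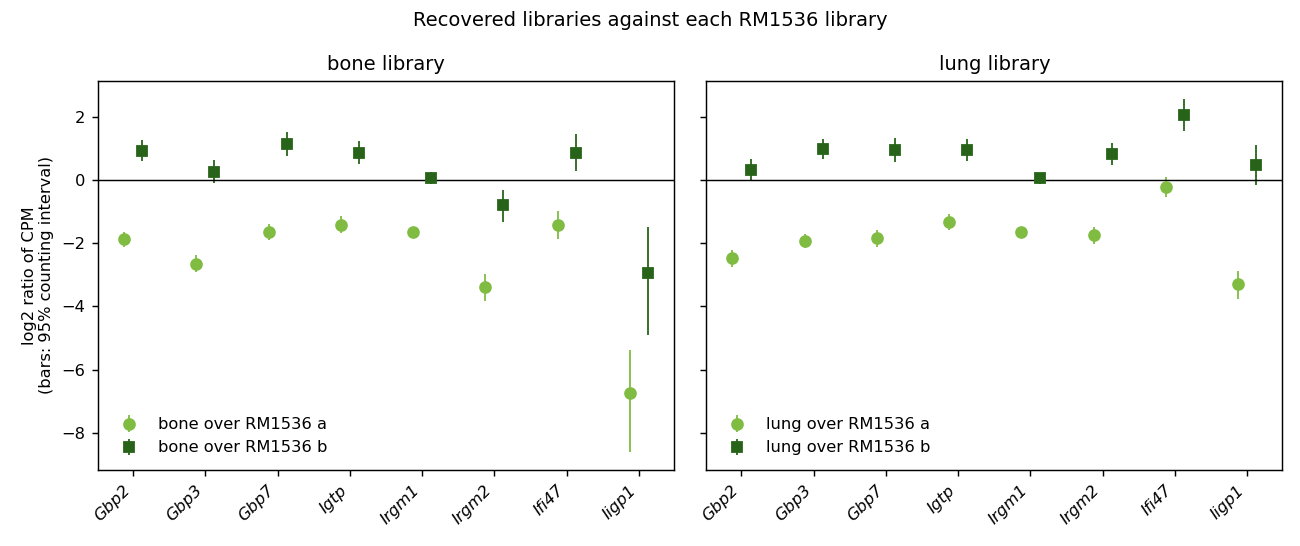
Log2 ratio of the bone library (left) and the lung library (right) over RM1536 a (circles) and over RM1536 b (squares) for each of the 8 genes, with 95% counting intervals as bars. The ratios over RM1536 a are all negative, and those over RM1536 b are positive except for Irgm2 and Iigp1 in bone.

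Bone against lung asks whether the site of recovery marks these genes. With 1 library each from 1 mouse, the site and the library cannot be told apart. None of the 8 passed the edgeR test (0.00723% of all genes were called lower), none had an unadjusted p under 0.05, and DESeq2 and limma-voom called none. The median log2 fold change of the 8 was -0.40, against 0.02 for all genes tested, and 5 of the 8 were lower in bone, as were 47.4% of all genes. Iigp1 had 4 reads in bone and 48 in lung, a ratio of 0.0927 (95% counting interval 0.0243 to 0.253). Irgm2, at 0.323 (0.230 to 0.446), and Ifi47, at 0.438 (0.318 to 0.595), were also over 2-fold lower in bone, as were 8.61% of all genes tested, and none of the 8 was over 2-fold higher in bone, as were 8.21%. Gbp3 was lower in bone by less, at 0.609 (0.487 to 0.759). Gbp2 had a ratio above 1, at 1.53 (1.22 to 1.91), and the intervals of Irgm1, Igtp and Gbp7 held 1. These intervals cover counting error only. With the spread of the duplicates, the log2 fold change in bone against lung was -3.40 ± 2.14 for Iigp1 (adjusted p = 0.680) and -1.63 ± 1.12 for Irgm2 (adjusted p = 0.702).

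The rest of both families was set beside the members by genomic cluster. Of 22 further GBP and IRG family genes in the table, 20 were tested, with 5 called lower and 1 called higher in RM1536 against RM1 (5.64% of all genes were called in either direction). Their median log2 fold change was -1.69, and it was the same with the genes at 0 set to their bounds. On chromosome 3, Gbp5 lay with the members, at 0.571 CPM in bone, 0.987 CPM in lung, 1.73 and 0.0647 CPM in RM1536, and 2.51 and 2.90 CPM in RM1 (log2 fold change -1.62 ± 1.09, adjusted p = 0.436).

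The GBP genes of chromosome 5 had another order over the libraries. Gbp8 rose by 4.51 ± 0.79 on the log2 scale in RM1536 against RM1 (adjusted p = 0.0335), with 2.64 CPM in bone, 12.2 CPM in lung, 8.41 and 6.05 CPM in RM1536, and 0.0668 and 0.566 CPM in RM1. The call was lost without RM1536 a or without RM1536 b, with an adjusted p of up to 0.0857. Gbp4 had 8.34 CPM in bone, 13.2 CPM in lung, 19.4 and 9.03 CPM in RM1536, and 2.14 and 4.53 CPM in RM1 (2.09 ± 0.52, adjusted p = 0.0814). Gbp9 (0.29 ± 0.55, adjusted p = 0.801) and Gbp6 (-0.83 ± 0.99, adjusted p = 0.675) had RM1536 and RM1 values that overlapped. The 6 tested GBP genes of chromosome 5 had a median of 1.19, against -2.71 for the 4 of chromosome 3. Whether the clusters differ was not tested. Gbp4, Gbp8 and Gbp9 share about 60 bases of exon, Gbp6 and Gbp10 share exons with the overlapping gene Gm43302, and GBP genes are close copies, so reads may be split uncertainly among them.

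**Figure D3:**
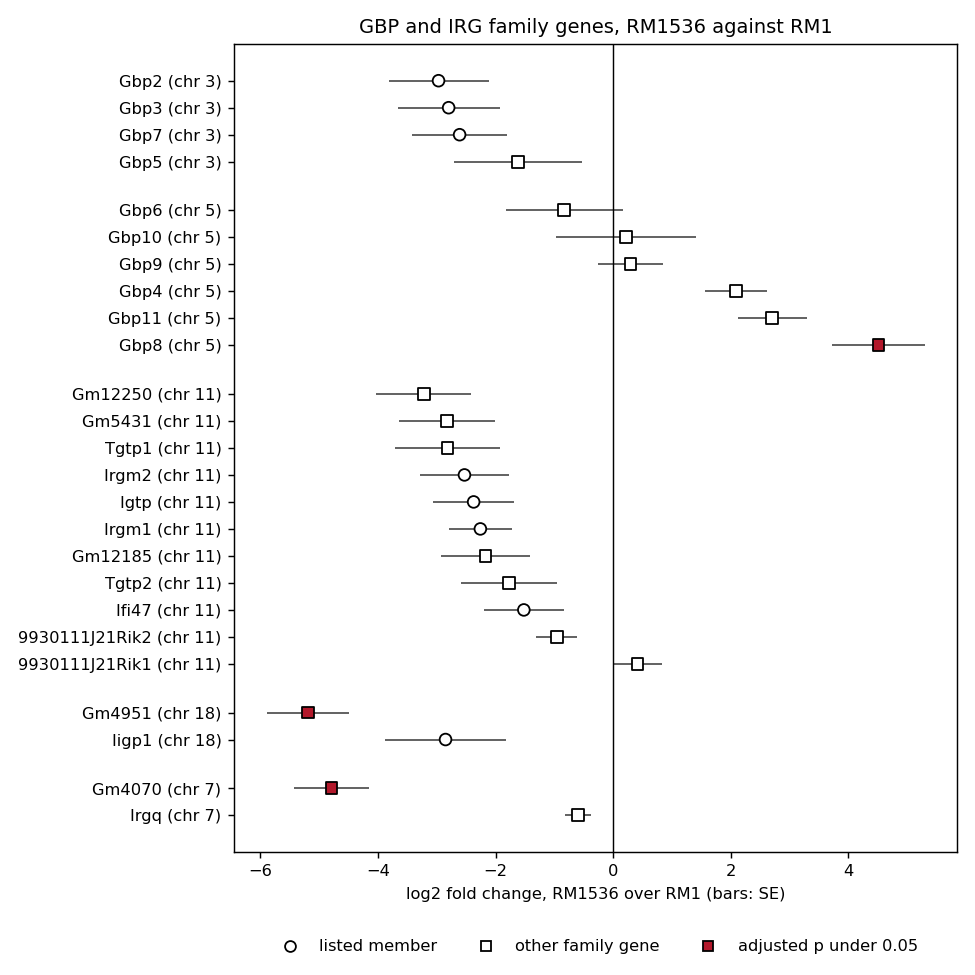
Fitted log2 fold change in RM1536 against RM1 (horizontal axis) for the 25 tested family genes with more than 3 reads in each group, ordered by chromosome, with bars for the SE. Circles are the 8 members, squares are other family genes, and red marks an adjusted p under 0.05. Chromosome 3, 11 and 18 genes lie to the left of 0 except 9930111J21Rik1, and on chromosome 5 only Gbp6 lies to the left.

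The IRG genes of chromosome 11 lay lower in RM1536 in 10 of 11 members and other genes tested, with none called by edgeR. Tgtp1, also named Irgb6, had 0.132 CPM in bone, 0.355 CPM in lung, 2.70 and 0.291 CPM in RM1536, and 9.82 and 10.97 CPM in RM1 (log2 fold change -2.82 ± 0.89, adjusted p = 0.134). Its near-copy Tgtp2 stood at -1.77 ± 0.82 (adjusted p = 0.266), and reads of the pair may be split between them. Gm12250, also named Irgb10, stood at -3.22 ± 0.81 (adjusted p = 0.0814) and Gm12185 at -2.17 ± 0.76 (adjusted p = 0.165). The exception was 9930111J21Rik1, at 0.41 ± 0.42 (adjusted p = 0.616). Its neighbour 9930111J21Rik2 had 1.27 CPM in bone, 14.6 CPM in lung, 17.9 and 10.03 CPM in RM1536, and 22.9 and 31.6 CPM in RM1, so that bone was the low library (bone against RM1536 -3.45, adjusted p = 0.103).

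The 3 other IRG genes next to Iigp1 on chromosome 18 fell. Gm4951, also named Ifgga2, stood at a log2 fold change of -5.19 ± 0.70 (adjusted p = 0.0184), with 0 reads in bone, 2 in lung, 13 and 4 in RM1536, and 259 and 417 in RM1. Gm4841 had 0 reads in all 4 bone, lung and RM1536 libraries against 32 and 20 reads in RM1, at least 16.6-fold lower in RM1536 (3 counts over the group as the limit; adjusted p = 0.0415). F830016B08Rik had 1 read in RM1536 and 87 in RM1, 0.0120 times as many (95% counting interval 0.000300 to 0.0686), with an adjusted p of 0.0276. On chromosome 7, Gvin1, a very large inducible GTPase, had 0 reads in RM1536 and 181 in RM1 (at least 57.8-fold lower, adjusted p = 0.0159), and its relative Gm4070 fell by 4.79 ± 0.64 (adjusted p = 0.0184), while Irgq, a distant IRG relative, stood at -0.59 ± 0.22 (adjusted p = 0.180). Without RM1536 b, none of the 5 genes that fell was called (adjusted p up to 0.107 for F830016B08Rik over the settings run and 0.126 for Gm4841). Gm4841 also missed the threshold without any 1 of the other culture libraries, and F830016B08Rik without RM1536 a.

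A list of interferon signalling genes was read next, which mixes genes that carry the signal with genes that restrain it or answer to it. Of 23 in the list, 21 were lower and 2 higher in RM1536 against RM1 by sign, with a median of -0.77. The edgeR test called 4 lower and 0 higher, where 3.54% of all genes were called lower (DESeq2 called 10 and limma-voom 7). Irf8, an interferon regulatory factor of myeloid cells, fell by 3.29 ± 0.33 in log2 units (adjusted p = 0.0101), and Nlrc5, which switches on MHC class I genes, fell by 3.84 ± 0.49 (adjusted p = 0.0165). Both kept their calls under every alternative run. Batf2 had 2 reads in RM1536 and 132 in RM1 (ratio 0.0158, 95% counting interval 0.00190 to 0.0583, adjusted p = 0.0339, lost without RM1 b, RM1536 a or RM1536 b, at up to 0.115).

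Stat2 (-2.21 ± 0.46, adjusted p = 0.0507) and Irf9 (-2.00 ± 0.47, adjusted p = 0.0699), which code for partners in the ISRE-binding complex, were lower without passing. Irf1, a factor that acts on GBP and IRG promoters, had 24.1 CPM in bone, 22.5 CPM in lung, 50.4 and 36.3 CPM in RM1536, and 46.3 and 44.6 CPM in RM1 (-0.07 ± 0.24, adjusted p = 0.897). The receptor gene Ifngr1 stood at 0.17 ± 0.23 (adjusted p = 0.728), with all 6 libraries between 20.3 and 28.1 CPM. In bone and in lung against RM1536, none of the 23 was called by edgeR, with 7 in bone and 5 in lung at an unadjusted p under 0.05, 1 in each called by DESeq2 and 0 by limma-voom.

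**Figure D4:**
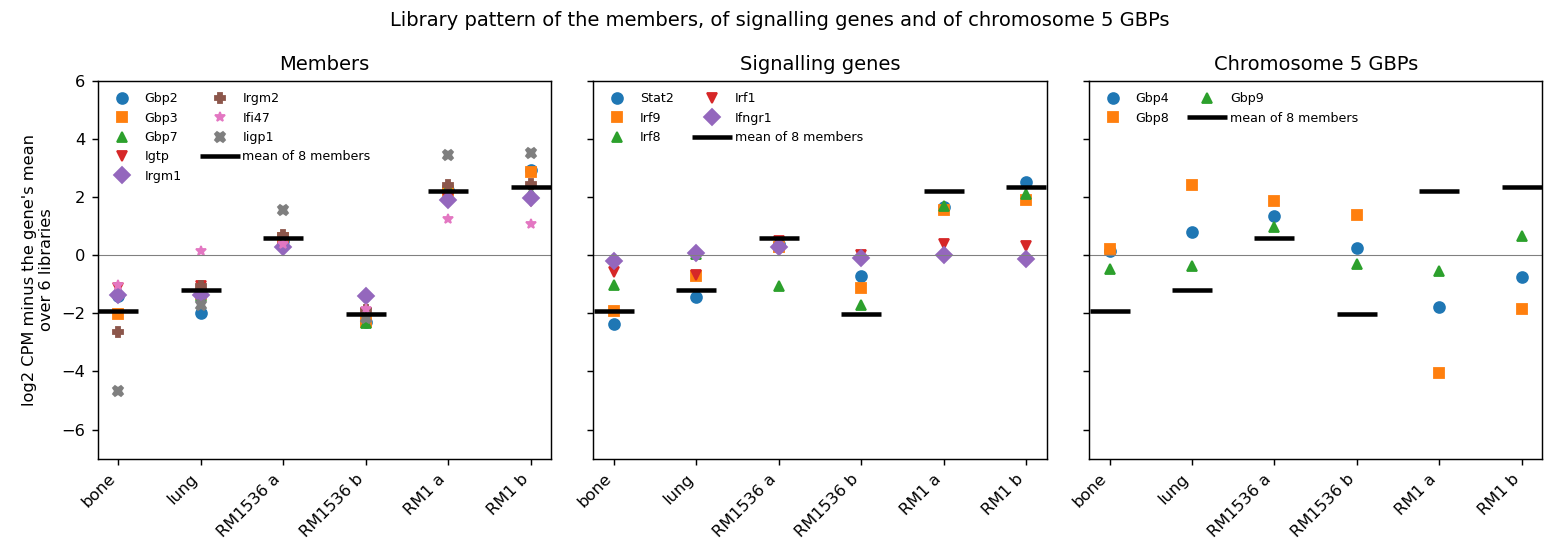
Log2 CPM of single genes in each library after subtracting the gene's mean over the 6 libraries, for the 8 members (left), 5 signalling genes (middle) and 3 chromosome 5 GBP genes (right), with the mean of the 8 members as a black bar in each panel. Stat2 and Irf9 lie on the same side of 0 as the bar in all 6 libraries. Irf8 does not, as it stands at -1.07 in RM1536 a, where the bar is at 0.59, and at 0.03 in lung, where the bar is at -1.21. Irf1 runs from -0.66 in lung to 0.50 in RM1536 a, and Ifngr1 from -0.18 in bone to 0.29 in RM1536 a. Gbp4 and Gbp8 lie below 0 in RM1 where the bar stands at 2.22 and 2.35.

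Other genes that answer to interferon gamma, or that work beside GBPs, were read from lists. Of 11 tested interferon gamma responsive genes, 9 were lower and 2 higher in RM1536 against RM1 by sign, with a median of -2.75. The edgeR test called 4 lower and 1 higher, where 5.64% of all genes were called in either direction. The 1 called higher was Casp1, which is also in the inflammasome list below. The peptide transporter genes Tap1 (-2.83 ± 0.58, adjusted p = 0.04998) and Tap2 (-1.58 ± 0.30, adjusted p = 0.0410), the immunoproteasome gene Psmb8 (-3.36 ± 0.44, adjusted p = 0.0175) and the PD-L1 gene Cd274 (-2.60 ± 0.49, adjusted p = 0.0410) fell. All 4 missed the threshold without RM1536 b, and Tap1, Tap2 and Cd274 also without RM1 b (up to 0.119), Tap2 without RM1 a, and Tap1 under the stricter filter and with the culture libraries alone. With the replicate letter as a block, Tap1, Tap2 and Cd274 missed it too. The class II genes H2-Aa and H2-Ab1 and their activator Ciita had at most 1 read in any library. H2-Eb1, also of class II, had 6 reads in bone and 5 in lung, against 0 and 0 in RM1536 and 0 and 1 in RM1. Cd74, the class II invariant chain gene, had 14 reads in bone and 19 in lung, against 1 and 3 in RM1536 and 1 and 3 in RM1. Lyz2 was likewise read in bone and lung alone. Of 21 antiviral genes that type I interferon induces, edgeR called 7 lower and 0 higher (median -3.29), with an unadjusted p under 0.05 in 19 and 13 called by DESeq2 and by limma-voom.

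Of 19 genes for ATG8 conjugation and vacuole targeting, which take part in loading GTPases onto vacuoles, edgeR called 0 in RM1536 against RM1 (2 at an unadjusted p under 0.05, 1 called by DESeq2 and 1 by limma-voom), with a median of -0.14. Of 5 tested inflammasome genes, Casp1, the caspase that cleaves interleukin 1 beta, was the 1 called. It had 244 reads in RM1536 and 3 in RM1, 84.9 times as many (95% counting interval 28.7 to 414), with an adjusted p of 0.00942, opposite in direction to the members. Casp4, the caspase that senses bacterial lipopolysaccharide exposed by GBPs, had 0.307 CPM in bone, 5.803 CPM in lung, 4.02 and 1.07 CPM in RM1536, and 4.88 and 9.56 CPM in RM1 (log2 fold change in RM1536 against RM1 -1.51 ± 0.68, adjusted p = 0.256). Like Iigp1 and Irgm2, and like Stat2 and Irf9 among the signalling genes, it was lower in bone than in the other 5 libraries. The share of all genes with that order was not counted.

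Among 9871 tested genes with a mean of at least 5 CPM, the genes whose log2 CPM was most like the mean of the members were listed by Pearson's r over the 6 libraries. These libraries include duplicates and a pair from 1 mouse, so r is a description. Dhx58, an RNA sensor gene, came first (r = 0.996), followed by Trim34a (0.995), Ifi203 (0.995), Vamp8 (0.995), Ifit3 (0.993), Ibtk (0.993), Cxcl10 (0.992), Ifit1 (0.991), Rtp4 (0.991) and Tap1 (0.990). Dhx58 had 2.81 CPM in bone, 3.63 CPM in lung, 14.4 and 2.33 CPM in RM1536, and 51.7 and 73.7 CPM in RM1. Vamp8 and Ibtk had a like pattern over a far smaller range, as Vamp8 stood at 29.8 CPM in bone, 31.1 CPM in lung, 38.9 and 30.1 CPM in RM1536, and 45.1 and 47.8 CPM in RM1. Of the 10, Tap1 was the 1 called in RM1536 against RM1.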

How the data were processed

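The authors deposited raw counts by gene symbol. Tools named in the submitters' processing notes, with no step given for any, are TopHat2 2.1.10, HTSeq and edgeR, with the build GRCm38. Strand setting, counting mode and annotation release were not found in these sources. A nameless entry, holding 0.00626% to 0.00830% of a library, was dropped. The main test was the quasi-likelihood test of edgeR 4.0.16 in R 4.3.3, with TMM factors, filterByExpr by group and 4 groups. It had 2 residual and 4.03 prior degrees of freedom and a common dispersion of 0.0725. It was first run on simulated counts with the same dispersion for all genes, which lack the spread between duplicates that the members show. DESeq2 1.42.0, limma 3.58.1 (voom), other scaling and filters, and leaving out each culture library were alternatives. The SE is the log2 fold change over the square root of F. Intervals on read ratios are exact (95%), and these and the limits for 0 reads hold counting error alone. Precision follows depth: 3 reads equal 0.0971 to 0.132 CPM. Positions and exon lengths are from GENCODE M21 (GRCm38), and other gene names from RefSeq. The duplicates differed beyond counting error (chi-square per degree of freedom 93.0 in RM1 and 93.8 in RM1536). The named genes are the 8 members, family genes with a mean of at least 1 CPM, up to 6 called genes per list, and the 10 most like the members. Not all that the rule allows are printed. Gbp10, Irf1, Irf9, Stat2, Ifngr1, Casp4, the marker genes and the class II genes were named after their values were seen. Members, lists and tests were chosen with earlier results of these data known. Proteins were not analysed here. Some genes of the lists are counted but not reported by name here.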

Additional observations from a re-analysis of the deposited data

How the results depend on the processing

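No comparison between groups called the members with edgeR as reported, and the number called moved with the filter, the tool and the RM1536 library. In RM1536 against RM1, no low-count filter gave 8 called members and 2394 called genes, DESeq2 gave 3 and 1466, limma-voom gave 1 called member, and edgeR as reported gave 0 and 780. Leaving out 1 culture library gave 0 to 8 called members, 196 (without RM1536 b) to 513 called genes and a median of the members from -4.49 to -1.80. The culture libraries with the replicate letter as a block gave 295 called genes and 0 members. Gbp8, Gm4841, F830016B08Rik and Batf2 were among the genes that missed the threshold with this block. The letters are not known to pair the cultures, and the differences between a and b correlated at -0.37 between RM1 and RM1536. A crossed block (RM1 a with RM1536 b), chosen after seeing the data, gave 3165 called genes and 8 members. No paired fit could be made for bone or lung.

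In bone against RM1536, no filter gave 859 called genes and 4 members, DESeq2 369 genes and limma-voom 0, against 2 as reported (1372 at an unadjusted p under 0.05). In lung, no filter gave 1299 and 3 and DESeq2 356. In bone against lung, no filter gave 754 and 2, DESeq2 213, and limma-voom and the stricter filter 0, against 1 as reported. Leaving out 1 culture library gave 0 to 128 called genes in bone, 0 to 7 in lung and 1 to 32 in bone against lung, and medians of the members from -1.76 to 0.57 in bone and -1.78 to 0.91 in lung.

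Without RM1536 a, signs turned in 6 members in bone and 7 in lung. Over the left-out libraries the log2 fold change in bone ran from -1.87 to 0.93 for Gbp2, -2.64 to 0.28 for Gbp3, -1.64 to 1.15 for Gbp7, -1.42 to 0.88 for Igtp, -1.64 to 0.060 for Irgm1 and -1.41 to 0.87 for Ifi47. In lung it ran from -2.46 to 0.35 for Gbp2, -1.91 to 1.01 for Gbp3, -1.82 to 0.97 for Gbp7, -1.32 to 0.98 for Igtp, -1.62 to 0.082 for Irgm1, -1.73 to 0.86 for Irgm2, -3.28 to 0.51 for Iigp1 and, turning without RM1536 b, -0.19 to 2.08 for Ifi47. Irgm1 in bone against lung was near 0: -0.027 with RLE factors, -0.052 without a filter, -0.012 with the stricter filter, -0.030 with DESeq2 and -0.021 to 0.0014 over left-out libraries. In RM1536 against RM1, Gbp6 ran from -3.60 to 0.043, Gbp9 from -0.51 to 1.04, Gbp10 from -2.31 to 1.88 (-0.18 with limma-voom, -0.023 with the replicate block) and 9930111J21Rik1 from -0.092 to 0.75. All 8 members kept a negative sign in RM1536 against RM1 under every alternative run. The cause was not tested. Depth limits Iigp1 in bone, with 4 reads.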
